A study of Homo sapiens with 8 samples.

Results

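The 56 genes described here encode the machinery that copies DNA and the regulators that start S phase. They were chosen by function: origin licensing, helicase activation, the sliding clamp and its loader, replicative polymerases, lagging-strand processing, nucleotide supply, chromatin supply, G1/S regulators and fork protection. All 56 were among the 13546 genes of the count table. RNA came from tumours that formed in nude mice, hosts without functional T cells, after injection of MDA-MB-231. This is a long-established human cell line from a triple-negative breast cancer. The cells carried either intact CDK4 (CDK4WT, 4 libraries) or were labelled as CDK4 knockout (CDK4KO, 4 libraries). The labels give no treatment, tumour age, mouse age, clone number or method of disruption, so CDK4KO stands here for the label and each group may be a single clone. Whether each library is a tumour of its own mouse is not stated, and the p-values then cover no more than the variation among these 8 libraries, which may be technical.

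As background, cyclin D with CDK4 or CDK6 phosphorylates the retinoblastoma protein RB, which releases E2F transcription factors from repression in G1. E2F then drives cyclin E and most genes of replication, and cyclin E with CDK2 phosphorylates RB further. Origins are licensed in G1, when ORC, CDC6 and CDT1 load the MCM helicase, and they fire in S phase, when CDC45 and GINS join MCM to form the active helicase. The level of these mRNAs in a tumour therefore follows, among other things, how many of its cells are cycling.

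Libraries held 27840883 to 33617977 counts, and totals overlapped between the genotypes. CDK4 mRNA stood at 115, 107, 116 and 112 CPM (counts scaled to a common library total) in the CDK4WT libraries and at 111, 119, 125 and 134 CPM in those labelled CDK4KO, so its level does not check the label. Of 13 markers listed for the injected line, 10 were in the table, with mean levels from 9.84 to 9503 CPM. The list mixed genes such as VIM and EGFR with ESR1, PGR, ERBB2, EPCAM and CDH1. Neither the number measured nor this range of levels therefore checks the identity of the line. CPM summed over markers of host-type cells overlapped between the genotypes for fibroblasts (5 of 8 markers measured, 783 to 1201 in CDK4WT and 687 to 1187 in CDK4KO) and leukocytes (6 of 8, 17.5 to 30.0 and 21.7 to 23.5). They did not overlap for endothelium (7 of 8, 248.5 to 288 and 315 to 378) or for muscle and fat (4 of 8, 11.3 to 29.8 and 6.58 to 10.8). Every gene of the table exceeds 1 CPM in at least 4 libraries, and each genotype has 4. A marker near that level can therefore enter the table through 1 genotype alone. The 4 muscle and fat markers had a median mean level of 1.59 CPM. Their sum therefore cannot show whether the genotypes differ. The part of these marker sets in any result was not tested. In bulk tumour RNA, fewer cells of a type and less RNA per cell cannot be told apart. Counts on human genes may also come from the injected cells or from mouse reads that align to them. The sums are therefore no measure of host cells.

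Many of these genes carry E2F sites close to their start. Stretches of the promoters are therefore shown for members of several roles whose upstream bases lie mostly outside annotated exons. Each stretch holds 100 bases, read in the direction of the gene and ending 1 base before a RefSeq start (MCM6: 170 to 71 bases before it), with capitals for the E2F letters on either strand. The starts used for GMNN and CDC7 lie downstream of the first annotated start, inside the annotated gene. RRM1 is given as a member in whose window these letters were not found.
MCM6 (chr2:135876514-135876613, minus strand): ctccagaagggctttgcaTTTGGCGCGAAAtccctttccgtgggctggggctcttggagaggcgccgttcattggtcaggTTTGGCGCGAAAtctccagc
GMNN (chr6:24775313-24775412, plus strand): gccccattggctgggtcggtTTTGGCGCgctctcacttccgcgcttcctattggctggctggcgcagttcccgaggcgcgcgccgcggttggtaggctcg
CDC7 (chr1:91501012-91501111, plus strand): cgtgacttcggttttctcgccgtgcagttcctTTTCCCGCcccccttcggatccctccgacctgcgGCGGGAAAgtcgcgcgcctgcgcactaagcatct
PCNA (chr20:5126623-5126722, minus strand): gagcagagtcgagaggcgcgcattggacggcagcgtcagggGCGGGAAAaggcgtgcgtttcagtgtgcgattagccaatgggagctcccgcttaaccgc
CDC25A (chr3:48188418-48188517, minus strand): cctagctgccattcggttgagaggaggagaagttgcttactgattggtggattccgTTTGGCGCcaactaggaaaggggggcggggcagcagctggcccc
E2F1 (chr20:33686386-33686485, minus strand): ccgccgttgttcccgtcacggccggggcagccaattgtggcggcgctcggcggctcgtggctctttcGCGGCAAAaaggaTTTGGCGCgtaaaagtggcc
E2F2 (chr1:23531234-23531333, minus strand): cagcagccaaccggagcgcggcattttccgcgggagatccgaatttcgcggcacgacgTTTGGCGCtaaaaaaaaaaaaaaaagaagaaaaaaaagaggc
RRM1 (chr11:4094585-4094684, plus strand): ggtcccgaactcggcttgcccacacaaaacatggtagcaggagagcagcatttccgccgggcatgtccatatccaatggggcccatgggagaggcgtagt
These are GRCh38.p14 sequences from RefSeq. The MCM6 promoter holds the letters as 2 separate runs, each read as a site on both strands, and CDC7 and E2F1 hold 2 sites each.

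RefSeq windows of 300 bases, from 250 before to 50 after a start, matched 49 of the 56 genes by symbol, with 66 windows because some genes have several starts. MCM4, MCM5, RPA2, RPA3, POLD3, CCNE2 and GINS4 had none. E2F letters (TTTCCCGC, TTTGGCGC, TTTCGCGC or TTTGCCGC, both strands) were found for 26 of the 49 genes (53.1%), against 6.61% of 10667 genes of the count table with a window. Over single windows the shares were 40.9% of the members' 66, 4.84% of the 15525 windows of the table's genes and 3.31% of all 35116 windows. Of the 37 matches, 26 began within 100 bases before the start. The CCAAT letters of NF-Y, a factor that binds many cell cycle promoters, were in 59.2% of the members' genes and 43.3% of the table's. The GGGCGG letters of Sp1 were in 79.6% and 76.5%. The TTTGAA letters of the cell cycle homology region, which the DREAM complex uses at late cell cycle genes, were in 6.12% and 13.8%. These letters describe the windows and show no binding, and since the genes were partly chosen as E2F targets their E2F share is no independent finding.

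The comparison of the genotypes asked whether tumours labelled CDK4KO hold less or more of the replication mRNAs. No member differed between the genotypes beyond the spread of the libraries. With edgeR, 0 of the 56 members had a Benjamini-Hochberg adjusted p below 0.05, where 0.0591% of all genes did (8 of 13546). At an unadjusted p below 0.05 there were 0 members, 0 of them lower in CDK4KO, where 13.0% of all genes passed and 6.33% passed as lower. DESeq2 gave 0 members adjusted and 2 unadjusted (13.4% of all genes), and limma voom with library weights 0 and 6 (20.8% of all genes). The genotypes overlapped in all 56, where 7.68% of all genes had none. The median log2 fold change, CDK4KO minus CDK4WT, was -0.01 (0.004 over all genes), with 35 members below 0 and 21 above (48.8% of all genes were below).

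The 95% intervals give a size of difference for each gene. They rest on the same spread among these 8 libraries as the p-values, and that spread may be technical. Log2 fold changes ran from -0.23 for RFC4 to 0.19 for POLA2. The 95% intervals of all 56 lay inside a 1.5-fold change in either direction, as did those of 83.1% of all genes. In the fit limited to genes with a mean of at least 5 CPM, a level all 56 reached, it was 93.0% of genes. E2F2 was the exception in 2 of the 18 alternative fits, where its interval reached -0.61 (limma voom) and -0.69 (without CDK4KO replicates 1 and 4). For 44 of the 56 the interval lay inside a 1.25-fold change. The share of all genes inside that limit was not computed, so this count sets the members apart from no other genes. Member levels were well above counting noise: the lowest single count was 123, mean levels ran from 5.16 to 209 CPM, and the median standard error was 0.09 on the log2 scale.

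**Figure D1:**
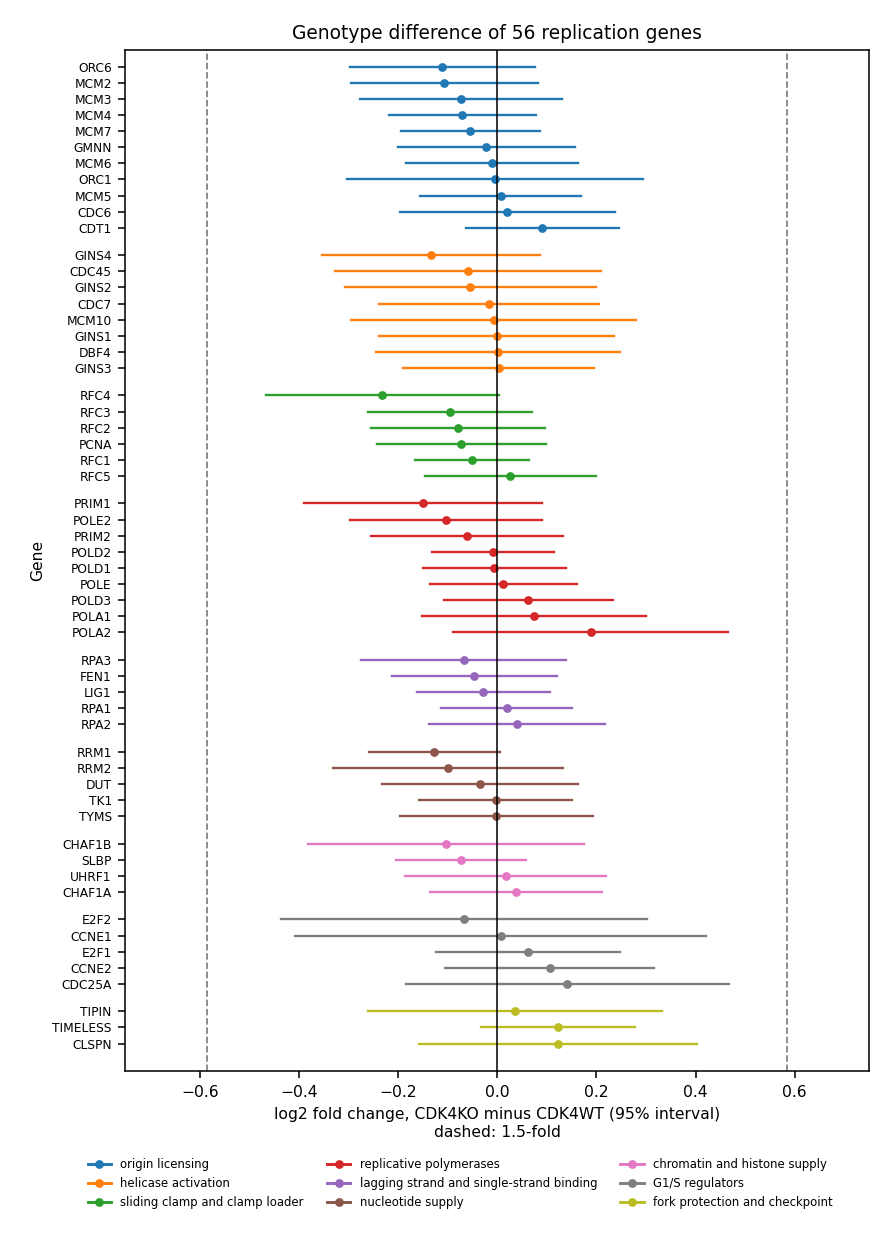
Log2 fold change of each of the 56 genes (points, CDK4KO minus CDK4WT, x axis) with its 95% interval (lines), 4 libraries per genotype, coloured by role. Intervals reach from -0.47 to 0.47 at most, inside the dashed lines at a 1.5-fold change, and each includes 0.

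Among the 11 origin licensing genes, 8 were below 0 and 3 above, between -0.11 and 0.09. MCM3, a subunit of the MCM helicase, had the highest level of this role per length, at 57.3 CPM per kilobase of exon. The 4 CDK4WT libraries had 226, 224, 234 and 174 CPM of MCM3 and the 4 CDK4KO libraries 225, 197, 191 and 203 CPM (log2 fold change -0.07 ± 0.09, SE; edgeR adjusted p = 0.778). CDK4WT replicate 4 lay below every other library, and the rest overlapped. The other MCM genes of the hexamer stood between -0.11 (MCM2) and 0.01 (MCM5), with MCM4 at -0.07, MCM6 at -0.01 and MCM7 at -0.05. MCM7 was abundant, at 193 CPM ± 7.41 and 186 CPM ± 13.6 (CDK4WT and CDK4KO, SD, n = 4 each).

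The origin recognition subunit ORC6 and the loading factor CDT1 had the smallest p among licensing genes and moved in opposite directions without passing. ORC6 was at 26.4, 33.3, 31.1 and 28.6 CPM in the CDK4WT tumours and at 28.7, 29.1, 25.4 and 27.3 CPM in the CDK4KO tumours (-0.11 ± 0.08, adjusted p = 0.615 by edgeR). CDT1 was at 30.0, 27.7, 29.9 and 26.9 CPM in the CDK4WT tumours and at 31.5, 28.01, 31.8 and 30.7 CPM in the CDK4KO tumours (0.09 ± 0.07, adjusted p = 0.619 by edgeR). Both sets of values overlap between the genotypes. ORC1, the ATPase of the origin recognition complex, and CDC6, which loads MCM with CDT1, stood at -0.005 and 0.02. GMNN encodes geminin, which binds CDT1 and blocks a second licensing in the same cycle. Its level was 49.9, 48.1, 50.8 and 39.7 CPM in CDK4WT and 43.9, 48.2, 47.3 and 46.2 CPM in CDK4KO (-0.02 ± 0.08). The ratio of CDT1 to GMNN within a library, which does not depend on scaling, was -0.71 ± 0.10 in CDK4WT and -0.61 ± 0.13 in CDK4KO as a log2 difference (SD, n = 4; exact permutation p = 0.314, adjusted 0.629 over 4 ratios).

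Helicase activation genes were 6 below 0 and 2 above, between -0.13 and 0.003. GINS4, a subunit of the GINS complex, had the smallest p of the role. Its values were 56.5, 53.7, 56.3 and 49.0 CPM in CDK4WT and 58.1, 47.4, 40.6 and 50.3 CPM in CDK4KO (-0.13 ± 0.10, adjusted p = 0.606 by edgeR). CDK4KO replicate 1 held the highest level and replicate 3 the lowest of all 8 libraries, and 23.6% of its exon bases overlap other annotated genes, which makes its count uncertain. CDC45, the partner of MCM and GINS in the active helicase, averaged 20.6 CPM ± 3.52 over the CDK4WT libraries and 19.8 CPM ± 1.89 over the CDK4KO libraries (-0.06 ± 0.12). MCM10, GINS1, GINS3 and the kinase pair CDC7 and DBF4, which phosphorylates MCM to fire origins, all lay between -0.02 and 0.003.

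RFC4, a subunit of the clamp loader that opens PCNA onto DNA, had the lowest fold change and the smallest p of all members. The gene lies on chromosome 3 from 186789880 to 186807058 (hg38, GENCODE 29). It was at 36.6, 39.2, 40.0 and 29.9 CPM in the CDK4WT tumours and at 28.1, 30.4, 29.4 and 36.2 CPM in the CDK4KO tumours (-0.23 ± 0.11, 95% interval -0.47 to 0.003, adjusted p = 0.391 by edgeR). CDK4WT replicate 4 lay among the CDK4KO values, and CDK4KO replicate 4 lay within the CDK4WT range. Of the other loader subunits, RFC3 stood at -0.10 ± 0.08, RFC2 at -0.08, RFC1 at -0.05 and RFC5 at 0.03. PCNA, the clamp itself, had the highest level per length of all members, at 67.8 CPM per kilobase. Its libraries were at 98.1, 113, 108 and 90.3 CPM in the CDK4WT tumours and at 105, 90.5, 94.8 and 98.8 CPM in the CDK4KO tumours (-0.07 ± 0.08), with full overlap.

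The 9 polymerase genes lay on both sides of 0, with 5 below and 4 above. POLA2, the B subunit of DNA polymerase alpha, had the highest fold change of all members. It was low, at 5.90, 6.31, 5.95 and 5.20 CPM in the CDK4WT tumours and at 6.67, 5.96, 6.05 and 7.98 CPM in the CDK4KO tumours (0.19 ± 0.13, adjusted p = 0.567 by edgeR). CDK4KO replicate 4 was the highest library, and 35.1% of its exon bases overlap another annotated gene. PRIM1, the catalytic primase subunit of the same complex, pointed the other way at -0.15 ± 0.11 (9.72 CPM ± 1.118 and 8.77 CPM ± 0.68). POLD2, an accessory subunit of polymerase delta, was the highest of the role per length and steady, at 176 CPM ± 2.56 and 174 CPM ± 9.90 (-0.01 ± 0.06). The catalytic subunits POLE and POLD1 stood at 0.01 and -0.01, and POLA1 at 0.07.

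Lagging-strand and single-strand binding genes ran from -0.07 to 0.04. RPA3, the small subunit of replication protein A, stood at -0.07 ± 0.09 and FEN1, the flap nuclease of Okazaki fragments, at -0.05 ± 0.08. FEN1 was at 99.0, 102, 99.4 and 81.6 CPM in the CDK4WT tumours and at 89.0, 88.7, 97.7 and 94.7 CPM in the CDK4KO tumours. CDK4WT replicate 4 was the lowest library, as for MCM3. LIG1, which seals the fragments, and RPA1 and RPA2 stood at -0.03, 0.02 and 0.04.

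All 5 nucleotide supply genes were below 0, between -0.13 and -0.002. RRM1, the large subunit of ribonucleotide reductase (chromosome 11, 4094707 to 4138876), had the second smallest p of all members. It was at 140, 155, 152 and 133 CPM in the CDK4WT tumours and at 131, 132, 134 and 135 CPM in the CDK4KO tumours (-0.13 ± 0.06, 95% interval -0.26 to 0.005, adjusted p = 0.401 by edgeR). The CDK4KO libraries were close together, and CDK4WT replicate 4 lay among them. RRM2, the small subunit whose level varies most in the cell cycle, was at 150, 167, 165 and 121 CPM in the CDK4WT tumours and at 151, 153, 137 and 123 CPM in the CDK4KO tumours (-0.10 ± 0.11). The log2 difference of RRM2 and RRM1 within a library was 0.05 ± 0.12 in CDK4WT and 0.08 ± 0.16 in CDK4KO (SD, n = 4; exact permutation p = 0.657, adjusted 0.686). TYMS (thymidylate synthase), TK1 (thymidine kinase) and DUT (dUTPase) stood at -0.002, -0.004 and -0.03. TYMS overlaps other genes over 46.6% of its exon bases, so its count is uncertain where counting did not use strand.

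Chromatin and histone supply genes were 2 below and 2 above 0. CHAF1B, a subunit of the histone chaperone CAF-1, stood at -0.10 ± 0.13, and SLBP, which binds the stem-loop of histone mRNAs, at -0.07 ± 0.06. CHAF1A, the large CAF-1 subunit, and UHRF1, which guides maintenance DNA methylation, stood at 0.04 and 0.02.

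**Figure D2:**
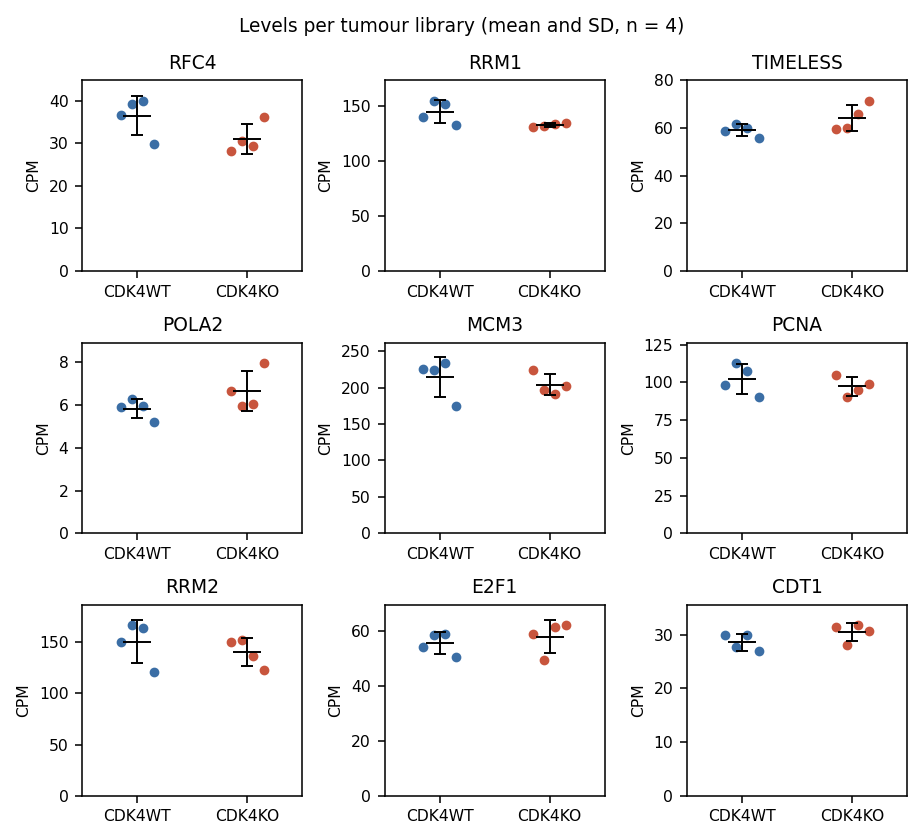
CPM (y axis, from 0) of 9 replication genes in each tumour library (points), with the mean and SD of each genotype (black bars, n = 4). The genotypes overlap in every panel, and CDK4WT replicate 4, drawn rightmost in its group, is the lowest CDK4WT library in each.

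Of 5 regulators of the G1/S step, 4 were above 0 and 1 below, and none passed in edgeR. E2F1, an activator E2F that is itself an E2F target, was at 54.0, 58.5, 58.9 and 50.4 CPM in the CDK4WT libraries and 58.9, 49.3, 61.4 and 62.1 CPM in the CDK4KO libraries (0.06 ± 0.08, adjusted p = 0.795 by edgeR). E2F2 was low, at 5.28 CPM ± 0.72 and 5.05 CPM ± 1.02 (-0.07 ± 0.17). The E cyclins CCNE1 and CCNE2 stood at 0.01 ± 0.19 and 0.11 ± 0.10. On the log2 scale CCNE1 had the widest within-genotype spread of all members, with libraries from 4.27 to 7.64 CPM. CCNE2 shares 37.1% of its exon bases with other annotated genes, so its count is uncertain. The same holds for MCM2 (23.6%), PRIM1 (21.6%), TIPIN (21%) and RRM2 (20.2%). CDC25A, the phosphatase that activates CDK2, was at 20.3, 21.4, 20.2 and 14.5 CPM in the CDK4WT libraries and 16.0, 21.8, 21.9 and 24.5 CPM in the CDK4KO libraries (0.14 ± 0.15). The ratios CCNE1 to CCNE2 and E2F1 to E2F2 differed by -0.10 and 0.14 on the log2 scale (exact permutation p = 0.686 and 0.229, adjusted 0.686 and 0.629; n = 4 each).

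All 3 fork protection genes were above 0. TIMELESS (chromosome 12, 56416373 to 56449403), which with TIPIN holds the polymerase and helicase together at the fork, was at 58.8, 61.7, 60.0 and 55.7 CPM in the CDK4WT tumours and at 59.7, 60.0, 65.8 and 71.5 CPM in the CDK4KO tumours (0.12 ± 0.07, adjusted p = 0.504 by edgeR). CDK4KO replicates 3 and 4 lay above the CDK4WT libraries and replicates 1 and 2 among them. CLSPN, the claspin adaptor that activates the checkpoint kinase CHEK1, was at 77.3, 77.3, 83.8 and 53.6 CPM in the CDK4WT tumours and at 80.7, 75.4, 72.01 and 89.9 CPM in the CDK4KO tumours (0.12 ± 0.13). TIPIN stood at 0.04.

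Other genes of the pathway were taken from 2 longer lists. Of 61 further replication and S-phase genes measured, 0 passed over all genes, and 1 had an unadjusted p below 0.05, against 13.0% of all genes. That was WEE1, the kinase that restrains CDK1 and CDK2, at 91.6, 87.0, 94.1 and 102 CPM in the CDK4WT tumours and at 82.2, 94.5, 72.5 and 63.5 CPM in the CDK4KO tumours (-0.26 ± 0.11, adjusted p = 0.343 by edgeR). POLD4, a small subunit of polymerase delta, and DCK, the deoxycytidine kinase of nucleotide salvage, followed at -0.17 ± 0.08 and -0.11 ± 0.06. The median of the 61 was 0.02. Of 16 E2F, DP and pocket protein factors 0 passed at either threshold, with a median of 0.02. LIN52, a subunit of the DREAM complex, E2F3, an activator, and E2F4, a repressor E2F, had the smallest p, at 0.14 ± 0.11, 0.08 ± 0.07 and -0.05 ± 0.05. RB1, the retinoblastoma gene, stood at 0.06 ± 0.06.

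While the genotypes did not separate, the libraries did differ, and the members moved together. For each gene the deviation of a library from the 8-library mean of log2 CPM was taken, and the median over the 56 members was formed. It was 0.02, 0.10, 0.09 and -0.16 in CDK4WT replicates 1 to 4, and -6.6e-05, -0.06, -0.04 and 0.07 in CDK4KO replicates 1 to 4. CDK4WT replicate 4 was low across the machinery: 2 of 56 members lay above their own mean there, against 52 and 53 in CDK4WT replicates 2 and 3. It held the lowest value of the 8 libraries in 38 members (67.9%), where it did so in 13.6% of all genes. The CDK4KO libraries had 28, 12, 19 and 42 members above their mean. The SD of the library medians was 0.12 within CDK4WT and 0.06 within CDK4KO (n = 4 each), against a difference of the genotype means of these medians from 0.01 to -0.01.

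**Figure D3:**
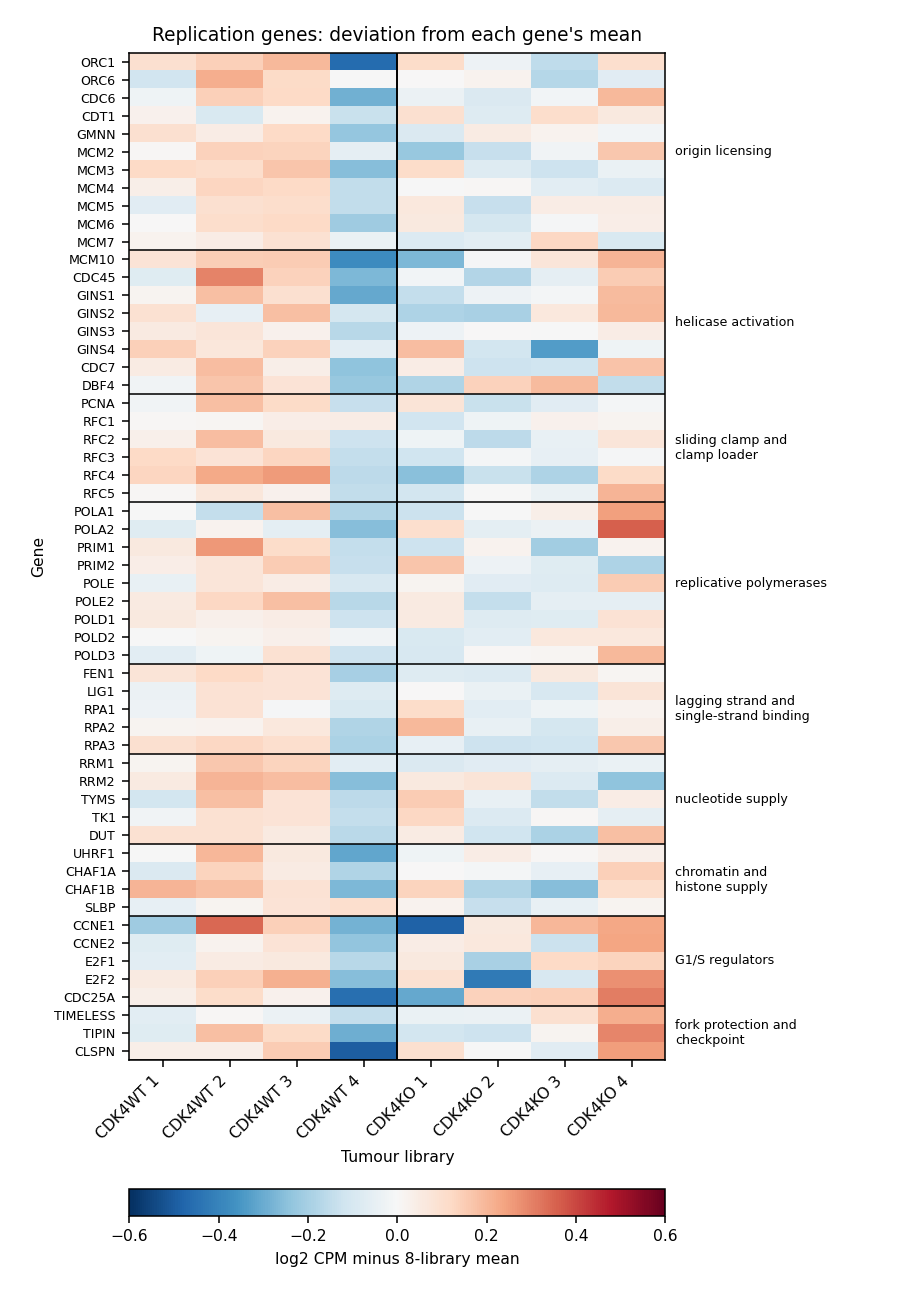
Deviation of log2 CPM from each gene's mean over the 8 libraries (colour), for the 56 genes (rows, by role) in each tumour library (columns). CDK4WT replicate 4 is below the mean in nearly every row, with 2 of 56 members above, and CDK4WT replicates 2 and 3 are above it in 52 and 53.

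The low values of CDK4WT replicate 4 ran through all roles. Its median deviation was -0.14 in the clamp and loader and in the polymerases, -0.15 in licensing and nucleotide supply, -0.18 in lagging-strand genes, -0.22 in chromatin supply, -0.24 in helicase activation, -0.26 in G1/S regulators and -0.29 in fork protection. CDK4KO replicate 4 was high in G1/S regulators (0.24), fork protection (0.25) and helicase activation (0.16), and near 0 in nucleotide supply (-0.04). It held the highest value of the 8 libraries in 22 members, and in 17.8% of all genes. Spread differed among members: the within-genotype SD of log2 CPM was 0.05 for RFC1 and 0.06 for POLD2, and 0.32 for CCNE1 and 0.26 for CDC25A and E2F2. The median was 0.13 for members and for all genes.

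After the genotype means were removed, the correlation between members across the 8 libraries had a median of 0.59 over 1540 pairs, and 92.1% of pairs were positive. Over all pairs of genes in the table the median was 0.00 and 49.97% were positive. These are descriptions: the points are the same 8 libraries, with shared depth and scaling, and genes are not independent replicates. CDC6, CLSPN and GINS1 followed the other members most closely, with median r of 0.78, 0.76 and 0.75. RFC1 and SLBP followed them least, at -0.05 and 0.07, followed by MCM7 (0.23) and DBF4 (0.25). Without CDK4WT replicate 4 the median among members was 0.33, and it was 0.56 to 0.70 when any other single library was left out. Within CDK4WT it was 0.88 and within CDK4KO 0.33 (4 libraries each). The 26 genes with E2F letters and the 23 without had median r with other members of 0.65 and 0.62, and median log2 fold changes of -0.01 and -0.05.

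Mitosis genes were also low in CDK4WT replicate 4. Of 42 mitosis genes, which act after replication is complete, 0 lay above their mean in CDK4WT replicate 4, at a median deviation of -0.24. In CDK4KO replicate 2 the mitosis genes were mostly high (34 of 42 above the mean) where the members were mostly low (12 of 56). The 61 other replication and S-phase genes did not share the members' low values there, with 32 of 61 above the mean and a median deviation of 0.003. In CDK4KO replicate 4 it was the reverse, with 10 of 42 mitosis genes and 42 of 56 members above the mean, and 38 of the 61. The median correlation of members with mitosis genes was 0.51 over 8 libraries and -0.06 without CDK4WT replicate 4.

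CDK4WT replicate 4 also held the highest level of hypoxia response genes, at a median deviation of 0.61 over 15 genes, all 15 above their mean. The other CDK4WT libraries were at -0.00078, 0.10 and 0.34, and the CDK4KO libraries at -0.08, -0.20, -0.36 and -0.43. The median correlation between members and these genes was -0.45 over 8 libraries and -0.09 without CDK4WT replicate 4, and their part in the replication genes' values was not tested. All 15 had an unadjusted edgeR p below 0.05 as lower in CDK4KO (6.33% of all genes), and 0 passed over all genes. The genotypes did not overlap in 9 of them, each lower in CDK4KO. Over all genes, 516 of 13546 had no overlap as lower, and 7.68% had none in either direction. The list was chosen with earlier results of these data known, so these counts are no independent finding.

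**Figure D4:**
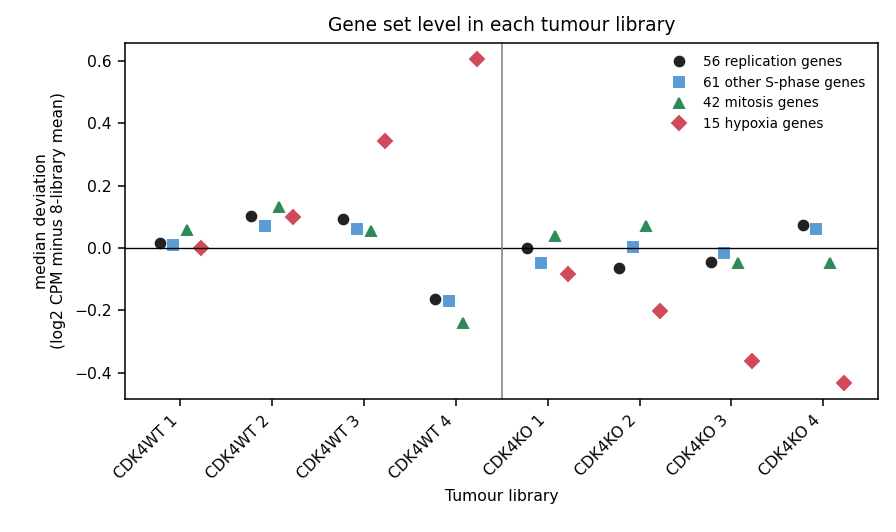
Median deviation of log2 CPM from the 8-library mean (y axis) for 4 gene sets in each tumour library (x axis, CDK4WT left, CDK4KO right). CDK4WT replicate 4 has the lowest replication (-0.16) and mitosis (-0.24) values and the highest hypoxia value (0.61).

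The direction of the members as a set rested on single libraries. Without CDK4WT replicate 4, 48 of 56 were below 0 (49.0% of all genes), the median was -0.08, and 6 reached an unadjusted p of 0.05 as lower in CDK4KO, namely RFC4, RRM1, RFC3, MCM3, MCM4 and RRM2 (5.87% of all genes as lower, 11.7% in either direction). None of these passed over all genes in edgeR, where the smallest adjusted p was 0.255 for RFC4 at -0.32. Without CDK4WT replicate 2 or 3 the median turned to 0.02 and 0.01, with 26 and 27 of 56 below 0, and without CDK4KO replicate 2 it was 0.002 with 27.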

How the data were processed

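The deposited table gives raw read counts for Ensembl genes, as deposited by the authors without normalization. Reads were handled with cutadapt, STAR 2.7.11a and featureCounts 2.0.4 on hg38, and DESeq2 1.46.0 is named, per the submitters' processing notes. For the strand setting, the annotation release and any removal of host reads, the answer is not given in the sources used here. Counts may include mouse reads that align to human genes. Every one of the 13546 genes exceeds 1 CPM, here taken on plain library totals, in at least 4 libraries. Columns KO5 to KO8 were matched to CDK4KO replicates 1 to 4 through the library numbers.

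Genotypes were compared with edgeR 4.0.16 in R 4.3.3 (TMM scaling, filterByExpr, which removed no gene, robust quasi-likelihood test), and p-values were adjusted by Benjamini-Hochberg across the 13546 genes. Log2 CPM used a prior count of 2. Levels per length use GENCODE 29 exon unions. Standard errors and 95% intervals come from the F statistic. In simulated counts for this comparison (13546 genes, 200 changed), 65.3% of 1.5-fold and 86.3% of 2-fold changes were recovered, and 5.55% of calls were false. The 3 simulations drew each gene independently, without shifts shared by the genes of a library. These rates may therefore not hold for the libraries here. Alternatives were DESeq2 1.42.0, limma voom (limma 3.58.1), other scalings, filters and dispersions, a replicate block and each library left out.

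The members, roles and lists were chosen with earlier results of these data known. Named genes are, in each role, the 2 members with the smallest p and the one highest per length, the genes of the 4 ratios, CDK4, and the 3 genes with the smallest p of each list of other pathway genes. Members, RB1 and markers named beyond that were chosen after their values were seen.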

Additional observations from a re-analysis of the deposited data

Results flagged for a closer look

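Values of 3 named members and 1 ratio had 1 library far from the other 3 of its genotype, and each time it was CDK4WT replicate 4. The gap to the nearest library was 0.853 of the CDK4WT range for FEN1 (81.6 CPM against 99.0 to 102), 0.830 for MCM3 (174 against 224 to 234) and 0.893 for RPA3 (22.1 against 26.9 to 27.5). For the log2 difference of RRM2 and RRM1 it was 0.929 (-0.13 against 0.10 to 0.12). Each exceeds Dixon's 95% critical value for 4 samples. Chance gives about 1 in 20 groups, and 80 groups, which share libraries, were examined.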

How the results depend on the processing

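In all 18 alternatives 0 members passed over all genes, and the smallest adjusted p was 0.0837 (limma voom, RFC4). Members at an unadjusted p of 0.05 numbered 2 with DESeq2 (13.4% of all genes), 6 with limma voom and library weights (20.8%), 1 with upper quartile scaling (12.9%), 1 with a mean of at least 5 CPM (13.1%), 2 without CDK4KO replicates 1 and 4 together (20.04%, chosen after seeing the data), and 0 to 6 with 1 library left out (9.06% to 17.7%). The voom fit had 48 members below 0 (50.3% of all genes) and a median of -0.07. Over single libraries left out, the median ran from -0.08 to 0.02 and members below 0 from 26 to 48.

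All genes called, 8 with every library, were 315 with DESeq2, 285 with voom, 14 with library size only, 19 with at least 5 CPM, 13 with the replicate block, 447 without CDK4KO replicates 1 and 4, and 0 to 183 with 1 library left out. With the replicate number as a block 32 members were below 0 (median -0.01) and 0 were called. Correlations of same-numbered libraries were -0.03, -0.01, 0.003 and 0.19. The same-numbered CDK4KO library was the closest partner for CDK4WT replicate 4 only. The labels state no pairing, and whether same-numbered libraries share a mouse or batch was not tested.

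Over the 16 alternatives that change a fold change, the 26 named members kept their direction in 394 refits and turned in 22. The other 2, no filter and non-robust dispersions, gave the same fold changes and could turn none. Signs turned for CLSPN and E2F1 with voom (-0.018 and -0.023), for TYMS with the block (0.00066), and for E2F1 and GMNN without CDK4KO replicates 1 and 4 (-0.0042 and 0.019). With 1 library left out the ranges that crossed 0 were CCNE1 -0.084 to 0.14, CDC45 -0.15 to 0.040, CLSPN -0.0022 to 0.19, E2F2 -0.18 to 0.050, GMNN -0.10 to 0.015, POLD2 -0.033 to 0.017, TYMS -0.056 to 0.062, the CCNE1 to CCNE2 difference -0.23 to 0.058 and the RRM2 to RRM1 difference -0.028 to 0.10. The cause was not tested. With TTTCCCGC and TTTGGCGC as the only E2F letters 49.0% of member genes held them.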
